A study of Mus musculus with 8 samples.

Results

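Transcripts of 8 genes of the semaphorin and plexin family were followed in mouse CD4+ T cells: the semaphorins Sema7a, Sema4a, Sema4b, Sema4c and Sema4d, and the plexins Plxnb2, Plxnc1 and Plxnd1. They were taken by gene symbol, as semaphorins of lymphocytes and their receptors, and all 8 were found among 54532 listed genes, each in 1 row. The family was chosen by name with the counts and fold changes of dimethyl succinate over vehicle in these same libraries in view, so its values in that contrast are a description and not a test. Spleen CD4+ T cells of wild-type (WT) mice were profiled by bulk mRNA sequencing after 3 days with dimethyl succinate, a cell-permeable ester of the metabolite succinate, in 4 libraries, and with vehicle, which the column headers call DMSO, in 4 libraries. The age and sex of the mice, the dose, and any stimulus given to the cells are not given in the sources used here, and no label ties a library to its own mouse or culture, so the spread between libraries, and any p-value resting on it, may be technical. The series title sets the work in T cell infiltration, CCL1 production and kidney fibrosis after obstruction.

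Semaphorins are secreted or membrane-bound ligands first known as axon guidance cues, and plexins are their transmembrane receptors, which act on small GTPases and on the cytoskeleton and adhesion. SEMA7A is held in the membrane by a lipid anchor, binds the plexin encoded by Plxnc1 and an integrin made of the Itga1 and Itgb1 chains, and is known on activated T cells, where it acts on monocytes and macrophages. Class 4 semaphorins cross the membrane. SEMA4D (CD100) is the abundant semaphorin of resting T cells, SEMA4A is known from dendritic cells and T helper 1 cells, and SEMA4C and SEMA4D are ligands of plexins of the B class.

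The promoter windows of Sema7a and Plxnc1 are shown because they are a ligand and its receptor, of which the ligand's transcript levels did not overlap between the groups and the receptor's did. Each is the single window listed by RefSeq (GRCm38.p6), from 250 bases before to 50 bases after the start used there. For Plxnc1 that start lies just outside the gene coordinates given below. Capitals mark GGGCGG (GC box), GGAAA (core of NFAT sites), TGANTCA (AP-1) and GCGNGGGCG (EGR), searched on both strands with overlaps between motifs allowed. Sema7a lies in chr9:57939862-57940161 on the plus strand, and Plxnc1 in chr10:94944796-94945095 on the minus strand.
Sema7a: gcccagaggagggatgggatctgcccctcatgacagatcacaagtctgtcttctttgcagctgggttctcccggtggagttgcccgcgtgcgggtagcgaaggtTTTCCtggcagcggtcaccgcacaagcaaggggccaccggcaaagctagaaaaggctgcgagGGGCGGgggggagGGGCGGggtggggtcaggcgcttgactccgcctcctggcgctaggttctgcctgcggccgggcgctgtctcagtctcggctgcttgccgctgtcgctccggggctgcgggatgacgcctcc
Plxnc1: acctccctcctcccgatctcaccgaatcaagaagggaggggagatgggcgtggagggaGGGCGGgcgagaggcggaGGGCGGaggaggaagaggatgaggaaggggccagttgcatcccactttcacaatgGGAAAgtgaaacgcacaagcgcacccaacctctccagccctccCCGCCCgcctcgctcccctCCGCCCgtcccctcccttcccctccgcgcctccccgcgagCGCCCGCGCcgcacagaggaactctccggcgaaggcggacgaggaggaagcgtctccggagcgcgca
The Sema7a window held 2 GC boxes and 1 NFAT core and no AP-1 or EGR match, and its GC content was 67.3%. The Plxnc1 window held 4 GC boxes, 1 NFAT core and 1 EGR match, with a GC content of 69.0%. Of all 32851 windows in the table, 35.7% held a GC box, 61.3% an NFAT core, 7.81% an AP-1 match and 5.55% an EGR match. These are matches of letters in the windows, and no binding was measured.

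Total counts ran from 14663698 to 16688854 per dimethyl succinate library and from 13407295 to 15738869 per vehicle library. Vehicle replicate 4 stood apart: 0.252% of its counts came from mitochondrially encoded genes, against 1.16% to 1.43% in the dimethyl succinate libraries and 1.27% to 1.48% in the other vehicle libraries. Its mean correlation with the other libraries was 0.981, against 0.989 to 0.991 for the others, so the members' fold changes are given with and without it. The 7 markers of CD4+ T cells were all present and summed to 2337 to 2412 CPM, counts scaled to library size, under dimethyl succinate and 1840 to 2377 CPM under vehicle, where 1840 was replicate 4. Markers of CD8 T cells summed to at most 7.54 CPM, of natural killer cells to at most 7.10 CPM and of monocytes and macrophages to at most 12.02 CPM in any library. Markers of B cells summed to 90.0 to 96.1 CPM under dimethyl succinate and 56.1 to 98.3 CPM under vehicle, most of it Ighm, and markers of dendritic cells to 24.4 to 27.2 CPM under dimethyl succinate and 23.0 to 34.1 CPM under vehicle, with Siglech and Cd209a at 0. Most of the dendritic cell sum was Batf3 and Zbtb46. Batf3 averaged 13.63 CPM under dimethyl succinate and 15.65 CPM under vehicle. Erythroid and platelet markers summed to 23.8 to 30.5 CPM under dimethyl succinate and 26.5 to 51.0 CPM under vehicle. Most of it was Itga2b, with means of 21.2 and 26.4 CPM in that order. Stromal and endothelial markers summed to 34.8 to 39.1 CPM under dimethyl succinate and 28.6 to 40.1 CPM under vehicle. Most of it was Pecam1, with means of 36.0 CPM under dimethyl succinate and 34.3 CPM under vehicle. Kdr, the next highest of that list, averaged 0.428 and 0.632 CPM in that order, and Cdh5 and Col3a1 were at 0. The groups overlapped in the summed level of every one of these 8 lists, and the part of other cells in the members' levels was not tested. In bulk RNA, fewer cells of a type and less RNA per cell cannot be told apart.

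Sema4d and Sema7a were the most abundant members per length and Plxnb2 the least, in both groups. Levels per length are the authors' FPKM, fragments per kilobase of gene length scaled to library size. Sema4d averaged 51.2 ± 1.35 FPKM under dimethyl succinate and 50.7 ± 4.04 FPKM under vehicle (SD, n = 4 each). That was above 93.2% of the 13981 genes tested under dimethyl succinate and above 92.8% under vehicle. Sema7a averaged 32.7 ± 1.46 FPKM under dimethyl succinate and 26.6 ± 1.65 FPKM under vehicle, above 87.6% of tested genes under dimethyl succinate and 84.0% under vehicle. Sema4b followed at 10.4 ± 0.949 FPKM under dimethyl succinate and 9.24 ± 0.546 FPKM under vehicle.

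The receptors were lower than these ligands. Plxnc1 averaged 6.98 ± 0.353 FPKM under dimethyl succinate and 6.82 ± 0.445 FPKM under vehicle, and Plxnd1 6.89 ± 0.175 FPKM under dimethyl succinate and 6.38 ± 0.363 FPKM under vehicle (SD, n = 4 each). Sema4a stood at 4.71 ± 0.201 FPKM under dimethyl succinate and 4.11 ± 0.0845 FPKM under vehicle. Sema4c and Plxnb2 closed the order. Sema4c was at 1.95 ± 0.238 FPKM under dimethyl succinate and 1.63 ± 0.343 FPKM under vehicle, and Plxnb2 at 1.11 ± 0.142 FPKM under dimethyl succinate and 0.974 ± 0.202 FPKM under vehicle. The order of the means was the same in both groups, and among its 7 pairs of neighbours only the ranges of Plxnc1 and Plxnd1 overlapped, again in both groups. The listed lengths equal the union of all annotated exons in all 8 genes, so a gene read mainly as a short transcript has its level per length understated.

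**Figure D1:**
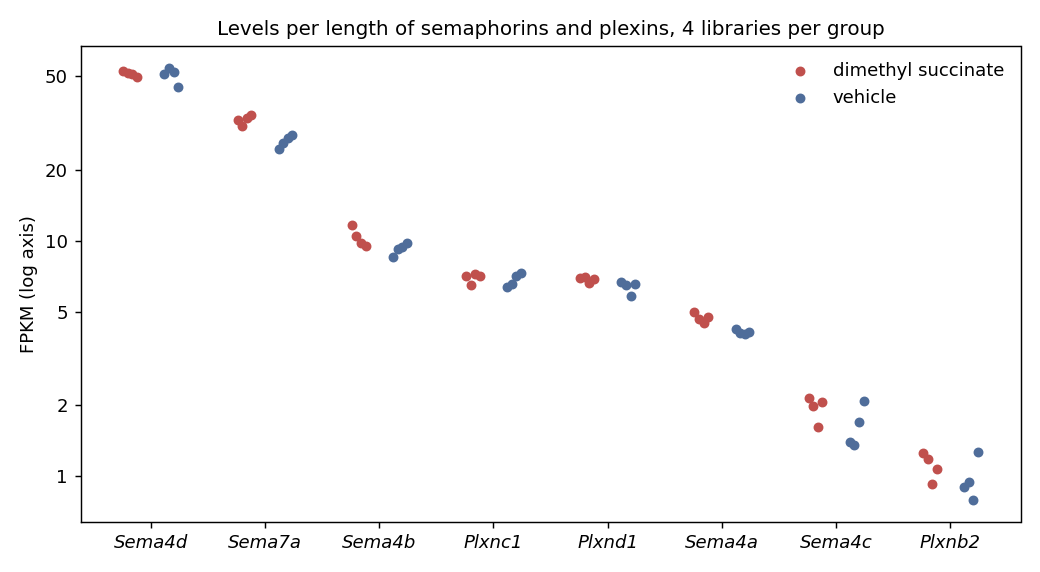
FPKM (log axis) of the 8 genes in each of the 4 dimethyl succinate and 4 vehicle libraries, 1 point per library, ordered by the mean under dimethyl succinate. Sema4d lies near 50 FPKM and Plxnb2 near 1, and the ranges of neighbours overlap for Plxnc1 and Plxnd1 alone.

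Sema7a was the member whose groups stood furthest apart relative to the spread of its libraries. It had 1593, 1710, 1801 and 1785 counts in the dimethyl succinate libraries 1 to 4, and 1154, 1354, 1217 and 1340 counts in the vehicle libraries 1 to 4. Scaled to library size, that was 109, 102, 110 and 114 CPM under dimethyl succinate, against 81.5, 86.2, 91.0 and 93.2 CPM under vehicle. All 4 dimethyl succinate libraries lay above all 4 vehicle libraries. The means were 109 ± 5.01 CPM under dimethyl succinate and 88.0 ± 5.24 CPM under vehicle (SD, n = 4 each), a log2 fold change of 0.31 ± 0.065 (SE) with a 95% interval of 0.17 to 0.45, or 1.24-fold. With vehicle replicate 4, the highest vehicle library of Sema7a, left out, the log2 fold change was 0.34 ± 0.057 (SE). The gene (ENSMUSG00000038264, protein coding) lies at chr9:57940112-57962865 on the plus strand (GRCm38) and has 3298 exon bases in 14 blocks. None of its exon bases is shared with another annotated gene, and none of its 50-base windows occurs in a transcript of another gene.

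Sema4a, whose product is a ligand of the plexin encoded by Plxnd1 and, in the mouse, of the receptor encoded by Timd2, was the other member whose groups did not overlap. Its levels were 27.1, 25.2, 24.5 and 25.8 CPM in the dimethyl succinate libraries 1 to 4, against 23.0, 22.1, 21.9 and 22.2 CPM in the vehicle libraries 1 to 4. The lowest dimethyl succinate library thus lay above the highest vehicle library. On the log2 scale the difference was 0.20 ± 0.078 (SE; 95% interval 0.032 to 0.37), and it was 0.20 ± 0.083 without vehicle replicate 4. Sema4a (chr3:88435959-88461182, minus strand) has 5406 exon bases, of which 1.35% are shared with Mir7011, a microRNA gene with 0 counts in the 8 libraries.

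Sema4b and Sema4c had higher means under dimethyl succinate with overlapping groups. Sema4b stood at 66.5, 59.25, 55.7 and 54.4 CPM under dimethyl succinate and at 48.3, 52.3, 53.5 and 55.4 CPM under vehicle. Dimethyl succinate replicate 4 lay below vehicle replicate 4, while dimethyl succinate replicates 1 to 3 exceeded all 4 vehicle libraries. For Sema4b the log2 fold change came to 0.17 ± 0.080 (SE; 95% interval -0.0017 to 0.34), and 0.20 ± 0.072 without vehicle replicate 4. Without dimethyl succinate replicate 1, its highest library, the value was 0.11. Of the 50-base windows of Sema4b (chr7:80186841-80226527, plus strand), 1.20% also occur in transcripts of other genes.

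Sema4c, a ligand of the plexin encoded by Plxnb2, rested on 91 to 153 counts per library. It stood at 9.97, 9.13, 7.46 and 9.585 CPM under dimethyl succinate and at 6.42, 6.24, 7.85 and 9.60 CPM under vehicle. Vehicle replicate 4 was within the range of the dimethyl succinate libraries, and vehicle replicate 3 lay above dimethyl succinate replicate 3. Its log2 fold change came to 0.26 ± 0.158 (SE; 95% interval -0.078 to 0.61). Leaving out vehicle replicate 4 moved it to 0.40 ± 0.143 (SE), with an interval of 0.11 to 0.70. Of the exon bases of Sema4c (chr1:36548639-36558349, minus strand), 7.27% are shared with D430040D24Rik on the opposite strand, which had 12 counts over all 8 libraries. Whether counting used strand is not given in the sources used here.

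Sema4d, the most abundant member, hardly differed in mean between the groups. It stood at 409, 398, 395 and 384 CPM under dimethyl succinate and at 394, 421, 402 and 346 CPM under vehicle. The range of the dimethyl succinate libraries lay inside that of the vehicle libraries, and vehicle replicate 4 was the lowest of all 8. The difference on the log2 scale was 0.021 ± 0.069 (SE), and its 95% interval ran from -0.13 to 0.17. Without vehicle replicate 4 it was -0.033 ± 0.046, with an interval of -0.13 to 0.061. The gene spans chr13:51685529-51793747 on the minus strand and shares no exon base with another annotated gene.

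Among the receptors, Plxnc1, which binds SEMA7A, had closely spaced groups. Its levels were 59.6, 54.2, 61.1 and 60.0 CPM under dimethyl succinate and 53.4, 55.0, 59.2 and 61.0 CPM under vehicle. The 2 ranges covered nearly the same values. Plxnc1 had a log2 fold change of 0.039 ± 0.072 (SE; 95% interval -0.12 to 0.19), and 0.073 ± 0.065 without vehicle replicate 4. Of the exon bases of Plxnc1 (chr10:94790866-94944835, minus strand), 1.38% are shared with Gm48718, which had 2 counts in all.

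Plxnd1, the receptor of SEMA3E and SEMA4A, which guides thymocytes within the thymus, was slightly higher in mean under dimethyl succinate. It stood at 51.2, 51.7, 48.8 and 50.9 CPM under dimethyl succinate and at 49.05, 47.55, 42.9 and 47.65 CPM under vehicle. Dimethyl succinate replicate 3 lay just below vehicle replicate 1, and no other pair of libraries crossed. Its log2 fold change was 0.11 ± 0.069 (SE; 95% interval -0.036 to 0.26), and 0.12 ± 0.068 without vehicle replicate 4. Plxnd1 lies at chr6:115954811-115995005 on the minus strand and shares no exon base with another annotated gene.

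Plxnb2, a receptor of SEMA4C and SEMA4D, was the least abundant member and rested on 82 to 154 counts per library. It stood at 9.77, 9.19, 7.22 and 8.37 CPM under dimethyl succinate and at 6.99, 7.32, 6.13 and 9.74 CPM under vehicle. As for Sema4c, vehicle replicate 4 fell within the range of the dimethyl succinate libraries and above the other vehicle libraries, and vehicle replicate 2 lay just above dimethyl succinate replicate 3. Plxnb2 had a log2 fold change of 0.19 ± 0.158 (SE; 95% interval -0.15 to 0.53), and 0.34 ± 0.143 without vehicle replicate 4, with an interval of 0.044 to 0.63. The gene lies at chr15:89155549-89180788 on the minus strand, with no exon base shared. The biological coefficient of variation in the fit was 13.7% for Plxnb2 and 13.8% for Sema4c, against 7.23% to 8.48% for the other 6 members.

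**Figure D2:**
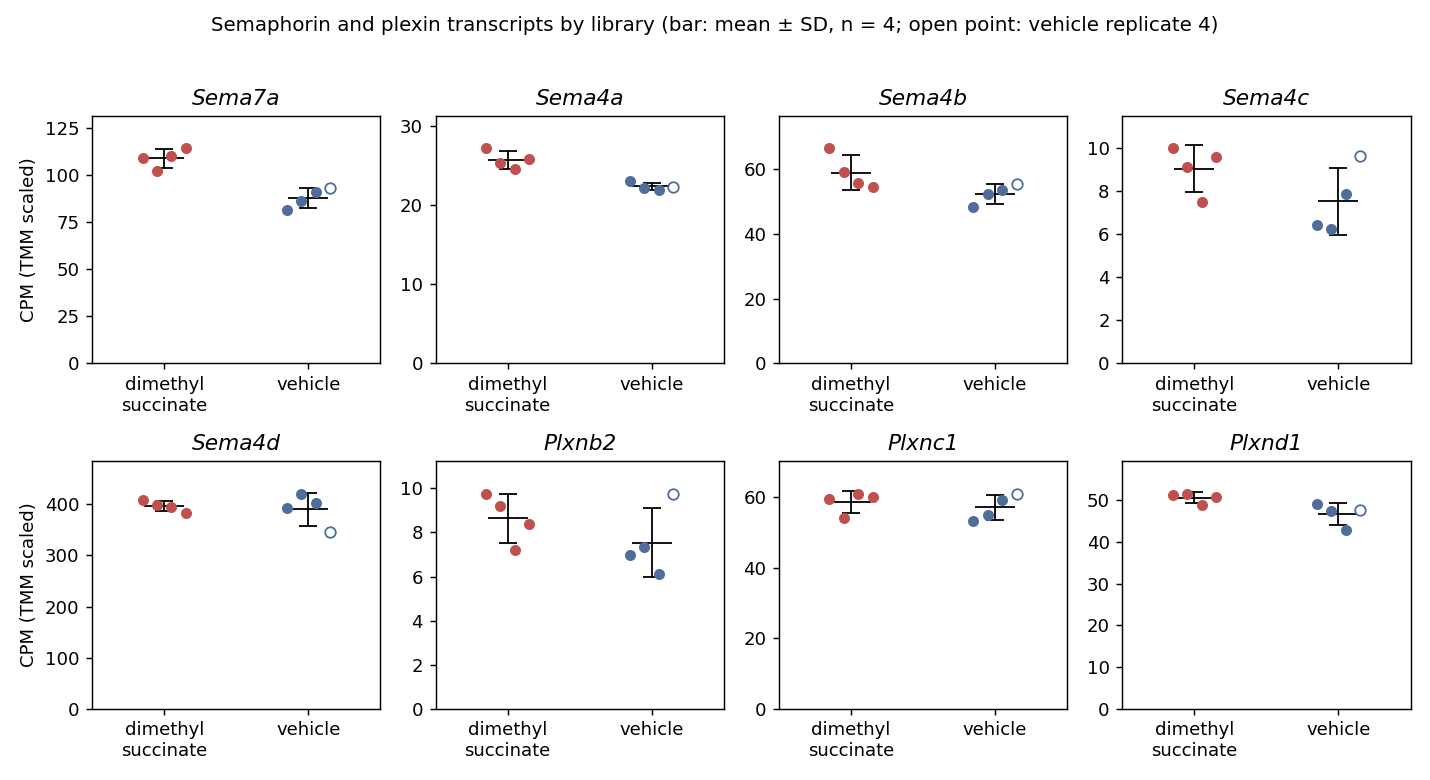
CPM of each gene in the 4 dimethyl succinate libraries (left, red) and the 4 vehicle libraries (right, blue), replicates 1 to 4 from left to right, with mean and SD; the open point is vehicle replicate 4. The groups do not overlap for Sema7a and Sema4a. Vehicle replicate 4 is the highest vehicle library for Sema7a, Sema4b, Sema4c, Plxnb2 and Plxnc1 and the lowest for Sema4d.

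Over the family, all 8 log2 fold changes were above 0 in the 8 libraries, where 49.6% of all tested genes were, and 7 of 8 without vehicle replicate 4, where 50% of tested genes were. Sema4d was the one below 0. The median was 0.18, or 0.20 without that library, beside -0.0011 and -0.00021 over all genes tested. Groups did not overlap, with dimethyl succinate higher, for 2 of 8 members and for 2.5% of all genes tested. All 8 members passed the filter on low counts. In the fit across all genes, edgeR's quasi-likelihood test, 0 of 13981 genes (0%) passed an adjusted p of 0.05, and 805 (5.76%) had an unadjusted p below 0.05. The adjusted p of the members ran from 0.646 for Sema7a to 0.959 for Sema4d. DESeq2 called 4 genes among those tested, none of them a member, and 0 when run on every gene with a count. Without vehicle replicate 4, edgeR called 28 genes (0.197% of those tested), 18 of them higher under dimethyl succinate (0.126%), and Sema7a was one of them, with an adjusted p of 0.00767. For the other 7 members the adjusted p there ran from 0.363 to 0.869. Before adjustment, 5 of 8 members had a p below 0.05 in that edgeR fit, beside 1216 of 14232 genes tested. The authors' deposited table gives Sema7a a log2 fold change of 0.30 with an adjusted p of 0.0747, and the other 7 members adjusted p of at least 0.821. Those values come from the same libraries.

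**Figure D3:**
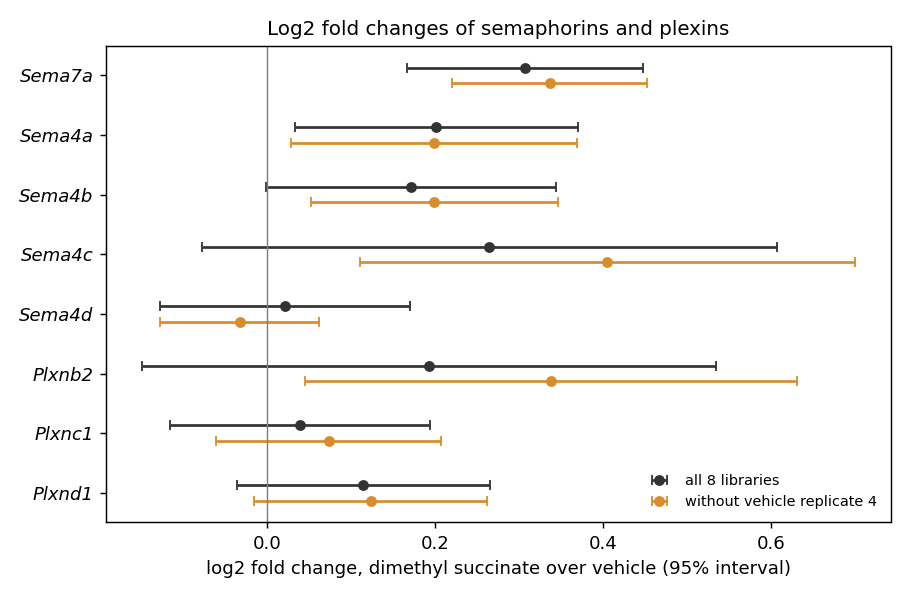
Log2 fold change of dimethyl succinate over vehicle for each gene with its 95% interval, from edgeR's fit across all genes, with all 8 libraries (dark) and without vehicle replicate 4 (orange). With all libraries the intervals of Sema7a and Sema4a lie above 0. Without vehicle replicate 4, Sema4c is at 0.40 and Plxnb2 at 0.34, and the intervals of Sema4b, Sema4c and Plxnb2 lie above 0 as well. In that fit, 1216 of 14232 tested genes had an unadjusted p below 0.05 in edgeR's test.

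The ligand and the receptor of the SEMA7A pair could be set against each other within each library, a ratio that no library scaling touches and that was picked after its values were seen. Sema7a over Plxnc1, both in FPKM, was 4.625, 4.76, 4.57 and 4.81 in the dimethyl succinate libraries 1 to 4, against 3.86, 3.97, 3.89 and 3.87 in the vehicle libraries 1 to 4. The groups were far apart beside their spread, and vehicle replicate 4 lay among the other vehicle libraries. The means were 4.69 ± 0.114 under dimethyl succinate and 3.90 ± 0.0479 under vehicle (SD, n = 4 each). This ratio uses the same contrast as the values above and adds no independent evidence. The 2 further ratios computed both overlapped between groups. Sema4d over Plxnb2 ran from 42.1 to 55.0 under dimethyl succinate and from 35.7 to 65.9 under vehicle, with the lowest value in vehicle replicate 4. Sema4a over Plxnd1 ran from 0.660 to 0.715 under dimethyl succinate and from 0.629 to 0.689 under vehicle.

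**Figure D4:**
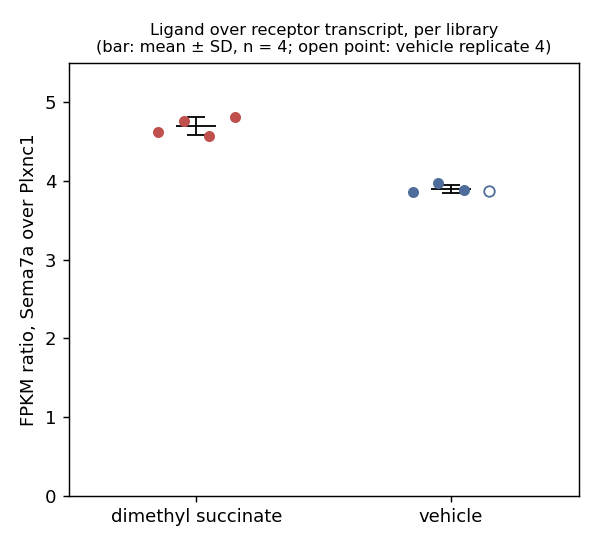
FPKM of Sema7a divided by FPKM of Plxnc1 in each library, with mean and SD; the open point is vehicle replicate 4. The 4 dimethyl succinate libraries lie between 4.57 and 4.81 and the 4 vehicle libraries between 3.86 and 3.97.

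The genes most like Sema7a in their pattern over the 8 libraries, among 8914 others with a mean of at least 10 CPM, were Pdcd1, Gfod1, Jade2, Rnf41 and Traf1. Pearson's r of log2 CPM was 0.978 for Pdcd1, the gene of the inhibitory receptor PD-1, and 0.949 for Traf1, an adaptor of TNF receptors. Over the 7 libraries without vehicle replicate 4 they were Egr2, Gfod1, Pdcd1, Slc43a2 and Nkg7, with r of 0.992 for Egr2, an early growth response transcription factor, and 0.977 for Nkg7, a cytotoxic granule protein. Gfod1 and Pdcd1 were in both sets of 5. Pdcd1 averaged 69.5 CPM under dimethyl succinate and 54.0 CPM under vehicle. The points are the same libraries that form the groups, so r partly repeats the difference between them, and it is given as a description.

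Other genes of the pathway were taken from 5 lists written from general knowledge, with results of the series already known. Of 64 genes, all were listed and 48 passed the filter on low counts. In edgeR's test 0 of 48 passed the adjusted threshold, higher or lower. Before adjustment, 4 of 48 were higher at a p below 0.05, where 2.93% of all tested genes were, and 0 were lower, where 2.83% were. Without vehicle replicate 4, 3 were higher and 0 lower, and 1216 of 14232 tested genes had such a p in either direction. Of the 48 log2 fold changes, 22 were above 0 and 26 below. Their median was -0.016 in the 8 libraries and 0.023 in the 7 that exclude vehicle replicate 4.

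Of 15 other semaphorins, 7 were tested, with 3 above 0 and a median of -0.019. Leaving out vehicle replicate 4 moved it to -0.12. The remaining 8, Sema3a, Sema3b, Sema3c, Sema3d, Sema3e, Sema3g, Sema5a and Sema5b, had from 0 to 37 counts over all 8 libraries together. Sema4f, the only one of the 7 with a mean of at least 10 CPM, stood at 9.11 ± 1.41 CPM under dimethyl succinate and 11.01 ± 1.63 CPM under vehicle (SD, n = 4 each). Its log2 fold change was -0.28 ± 0.142 (SE), or -0.17 without vehicle replicate 4.

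Of 6 other plexins, 3 were tested and all 3 lay above 0, with a median of 0.17. Plxna1, of the class that pairs with neuropilins, stood at 132 ± 7.24 CPM under dimethyl succinate and 117 ± 6.75 CPM under vehicle, a log2 fold change of 0.17 ± 0.065 (SE). Plxna3, of the same class, stood at 8.32 ± 0.47 CPM under dimethyl succinate and 6.88 ± 0.632 CPM under vehicle, a log2 fold change of 0.28 ± 0.122, and its groups did not overlap. Both had an adjusted p of 0.802 in edgeR's test. Plxnb1, the high-affinity receptor of SEMA4D, had 1141 counts in all and was not called. Plxna2, Plxna4 and Plxnb3 had 12, 10 and 21 counts in all.

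Of 10 other receptors and co-receptors, 7 were tested, with 4 above 0 and a median of 0.051. Leaving out vehicle replicate 4 moved it to 0.13. Itgb1, the beta chain of the integrin that binds SEMA7A, stood at 208 ± 8.97 CPM under dimethyl succinate and 224 ± 18.9 CPM under vehicle, a log2 fold change of -0.11 ± 0.068 (SE). In the 7 libraries that leave out vehicle replicate 4 it was -0.044. Itga1, its alpha chain, had 30 counts in all 8 libraries and was not tested. The neuropilins Nrp1 and Nrp2, co-receptors of secreted semaphorins, had log2 fold changes of 0.055 ± 0.108 and -0.093 ± 0.126, or 0.15 and -0.11 in the 7 libraries. Havcr2, which encodes the inhibitory receptor TIM-3, was at 0.19 ± 0.0996. It was counted in this list, and no pairing with a semaphorin is claimed for it. Timd2 and Cd72, whose product is the receptor of SEMA4D on B cells, had 232 and 216 counts in all.

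Of 30 cytoplasmic partners of plexins, 28 were tested, with 11 above 0 and 17 below. The median was -0.027, and it turned to 0.023 without vehicle replicate 4. Mical3, of the family of actin oxidases that act below plexins, stood at 25.3 ± 2.36 CPM under dimethyl succinate and 21.7 ± 0.419 CPM under vehicle, a log2 fold change of 0.22 ± 0.089 (SE), and its groups did not overlap. Farp1, an exchange factor of the plexin-associated FARP family, was at 0.18 ± 0.079. With Plxna1 and Plxna3 these were the 4 genes of the lists with an unadjusted p below 0.05 in edgeR's test, and none passed after adjustment. Without vehicle replicate 4, Mical3 was at 0.21 and Farp1 at 0.18, and Plxna3 no longer had such a p. Rap1b, the small GTPase on which the plexin GAP domain acts, stood at 764 ± 20.9 CPM under dimethyl succinate and 836 ± 59.1 CPM under vehicle, with a log2 fold change of -0.13 ± 0.068. In the 7 libraries that leave out vehicle replicate 4 it was -0.080. Its 4 dimethyl succinate libraries lay below all 4 vehicle libraries, as in 2.32% of all genes tested.

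The other partners named here, each with a mean of at least 10 CPM, lay between -0.18 and 0.30 with all 8 libraries, and the values without vehicle replicate 4 follow each set. Rap1a, Rhoa, Rac1 and Rras2, all small GTPases, had log2 fold changes of -0.14, -0.16, -0.078 and -0.060, or -0.12, -0.051, -0.079 and -0.056. Arhgef11 and Arhgef12, exchange factors bound by plexins of the B class, were both at 0.080, or 0.039 and 0.094. Mical1, Dpysl2 and Crmp1 were at 0.057, -0.032 and -0.034, or 0.054, 0.012 and -0.0032. Limk1, Limk2 and Cfl1, the kinases and the actin-severing protein they act on, were at 0.12, -0.065 and -0.038, or 0.085, -0.030 and 0.037. The kinases Fyn and Ptk2 were at -0.0038 and -0.18, or 0.021 and -0.10. The phospholipase gene Plcg1 and the adaptor Gipc1 were at -0.054 and -0.039, or -0.050 and -0.019. Sh3bp1 was at 0.30 ± 0.263 (SE), or 0.062 without vehicle replicate 4. Adam10 and Adam17, which encode sheddases of the cell surface, were at 0.084 and -0.027, or -0.019 and 0.047. The third protease gene, Mmp14, had 269 counts in all.

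**Figure D5:**
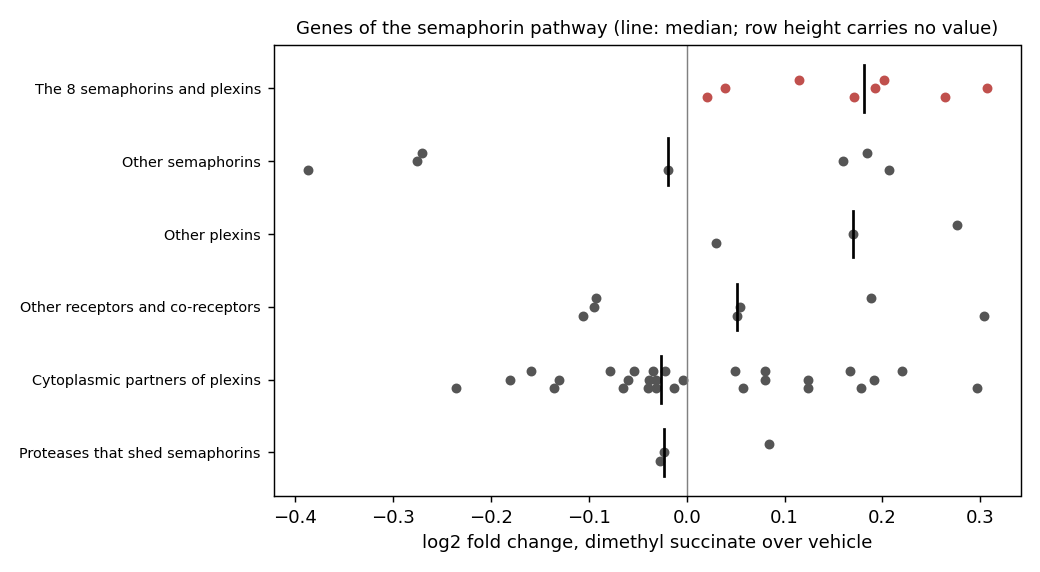
Log2 fold changes of dimethyl succinate over vehicle for the 8 semaphorins and plexins (red) and the 48 tested genes of the 5 other lists (grey), 1 point per gene, with the median of each row as a line. The medians are 0.18 for the 8 genes and -0.019, 0.17, 0.051, -0.027 and -0.024 for the lists from top to bottom, and none of the 48 grey points passed the adjusted threshold. Without vehicle replicate 4 the median of the cytoplasmic partners is 0.023.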

How the data were processed

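Per the file headers, the authors deposited 1 table with raw counts per gene and library and FPKM values per gene and library. Their group means are a normalised signal whose unit the file headers do not give, and their log2 fold changes and p-values with adjusted p-values were deposited beside them, per the file headers. The submitters' processing notes name HISAT2 2.0.5. The sources used here do not give the counting tool, annotation or build. Of 54409 gene IDs matched to GENCODE M21, 99.17% had its start or end, and coordinates are therefore read as GRCm38.

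Counts were filtered by filterByExpr, scaled by TMM and tested with edgeR 4.0.16 (R 4.3.3), quasi-likelihood with robust dispersions, 4 against 4 libraries, two-sided, with Benjamini-Hochberg adjustment over 13981 genes at 0.05. Standard errors derive from the F statistic; 95% intervals are given. CPM use TMM-scaled library sizes, and log2 CPM a prior count of 2. DESeq2 1.42.0, limma 3.58.1 (voom and trend), other scalings and filters, a replicate block and each library left out were the alternatives. DESeq2 on every gene with a count was added after seeing the data. The edgeR script was tested on simulated data. Within groups, the chi-square per gene between library pairs was at least 2.11, where counting alone gives about 1, so no library was a copy. Pairs with vehicle replicate 4 stood at 35.92 to 41.04, and every other pair at 8.03 or less.

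The members and lists were chosen with earlier results of these data known. Named were the 8 members, list genes that averaged 10 CPM or more or had an unadjusted p below 0.05, and the 5 genes most like Sema7a. One gene within the rule is not reported here. Genes outside it are given for their counts or overlaps.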

Additional observations from a re-analysis of the deposited data

How the results depend on the processing

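Sema7a, Sema4a, Sema4b, Sema4c, Plxnb2, Plxnc1 and Plxnd1 kept a log2 fold change above 0 in every alternative run. With 1 library left out, Sema4c ran from 0.18 to 0.40 and Plxnb2 from 0.11 to 0.34, both highest without vehicle replicate 4. Sema4d fell below 0 without vehicle replicate 4, at -0.033. Sema7a ran from 0.27 without vehicle replicate 1 to 0.34, reached when either vehicle replicate 4 or dimethyl succinate replicate 2 was left out. Its adjusted p was 0.0814 with DESeq2, 0.239 with DESeq2 on every gene with a count, 0.148 in edgeR with no low-count filter and 0.674 with limma-voom. Of all alternatives, the adjusted p of Sema7a passed 0.05 only in edgeR without vehicle replicate 4, at 0.00767, the highest being 0.936. Over all genes, the count of calls was 0 as reported and 0 to 28 with 1 library left out, where 28 came without vehicle replicate 4. DESeq2 gave 4 calls, edgeR on unfiltered counts gave 6 calls, and the replicate block gave 1, with 987 genes at an unadjusted p below 0.05 under the block. The cause was not tested. Of the other pathway genes, 0 were called in every alternative. The members' mean FPKM moved by less than their group SD with TMM-scaled CPM over length. With 1 of 4 libraries left out, a mean cannot move by as much as its SD, so that comparison would show nothing. In those runs the mean FPKM of Sema7a ran from 32.2 to 33.4 under dimethyl succinate and from 26 to 27.2 under vehicle. The numbers in the titles were not taken as pairs: deviations of same-numbered libraries correlated at -0.0079, 0.046, 0.13 and 0.26, and the pair numbered 4 alone were each other's best match. With the block the log2 fold change of Sema7a was 0.31, and its adjusted p in edgeR's test 0.579. Sema4c and Plxnb2, with 82 to 154 counts per library, are the members that depth limits most.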
